A study of Homo sapiens with 6 samples.

Results

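A set of 10 genes that mark the first steps of mesoderm and endoderm formation was followed in the established human embryonic stem cell line H1, grown on 2 laminin coatings. The 10 genes were taken from a fixed list of symbols (KDR, PDGFRA, TBXT, MIXL1, EOMES, HAND1, GATA4, GATA6, SOX17 and HHEX), and each matched 1 of the 60499 gene IDs in the deposited tables. The labels give no genetic change for any well, and all cells grew for 4 days in NutriStem medium. They grew either on laminin-521 alone (LN-521, 3 wells) or on laminin-521 with laminin-221 (LN-521+LN-221, 3 wells), and total RNA of each well was sequenced as 1 library. No differentiation treatment is given in the labels. RNA was taken at confluence, and the library kit keeps the strand. The labels call the wells biological replicates but name no separate passages, so the p-values measure the spread between wells of 1 cell line.

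Cells leaving pluripotency for mesoderm or endoderm pass through a state like the primitive streak of the embryo, in which the T-box factors TBXT and EOMES and the homeobox factor MIXL1 are switched on. Mesoderm progenitors then carry the receptor tyrosine kinases KDR and PDGFRA at their surface, and the factors HAND1, GATA4 and GATA6 act in the heart-forming mesoderm. SOX17 and HHEX mark endoderm, and GATA4 and GATA6 act there too. Transcripts of KDR have also been seen in undifferentiated human embryonic stem cells.

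The libraries held between 20606494 and 26836727 estimated counts. Each of the 7 pluripotency markers examined was expressed in every well, and their summed level was 7596 to 7666 CPM (counts scaled to TMM-adjusted library size) on LN-521, against 7613 to 7744 CPM in the LN-521+LN-221 wells. Most of that sum came from LIN28A and DNMT3B. Of these 7 markers, NANOG, TDGF1 and POU5F1 fell, LIN28A rose, and SOX2, DNMT3B and L1TD1 did not pass the test. The means on LN-521 and LN-521+LN-221 were 107 and 64.5 CPM for NANOG and 527 and 337 CPM for TDGF1. They were 1214 and 944 CPM for POU5F1 and 2694 and 3171 CPM for LIN28A. None of the 4 calls held in the TPM fits, which called 33, 16 and 1 genes in all. The LIN28A call was also lost without LN-521 replicate 3 (edgeR adjusted p = 0.0765), LN-521+LN-221 replicate 2 (0.112) or LN-521+LN-221 replicate 3 (0.0568), and the POU5F1 call without LN-521+LN-221 replicate 2 (0.0508). The NANOG and TDGF1 calls held in all 6 fits that left out 1 library and in the 7 other settings outside TPM. Counts were not whole in 6 libraries for NANOG and POU5F1 and in 5 for TDGF1, so their levels are less certain. Of all 17608 genes tested, 2.53% passed an adjusted p-value of 0.05, with 1.4% higher and 1.14% lower on LN-521+LN-221. When 1 library was left out, this share ranged from 1.09% to 6.54%.

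The 10 genes fell into 2 classes by level. KDR, HHEX and PDGFRA had enough counts to be tested, while the other 7 genes had 0 to 13 counts in every library. Of the 3 genes tested, KDR fell, HHEX rose and PDGFRA did not pass the test. So 2 of the 10 genes, and 2 of the 3 tested, were called, beside 2.53% of all genes tested. The 10 genes were chosen with earlier results of these data known, so these shares cannot be read as an excess. On the length-corrected scale of transcripts scaled to a fixed library total (TPM), KDR stood at 20.3 to 31.8 TPM over the 6 wells, HHEX at 1.85 to 5.93 TPM and PDGFRA at 0.80 to 1.97 TPM. That order of levels, KDR above HHEX above PDGFRA, held in 6 of 6 libraries, although the ranges of HHEX and PDGFRA over all wells overlapped. MIXL1 came next at 0.15 to 0.34 TPM and lay below PDGFRA in every library. The remaining 6 genes reached at most 0.27 TPM, and the order among them did not hold from library to library.

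**Figure D1:**
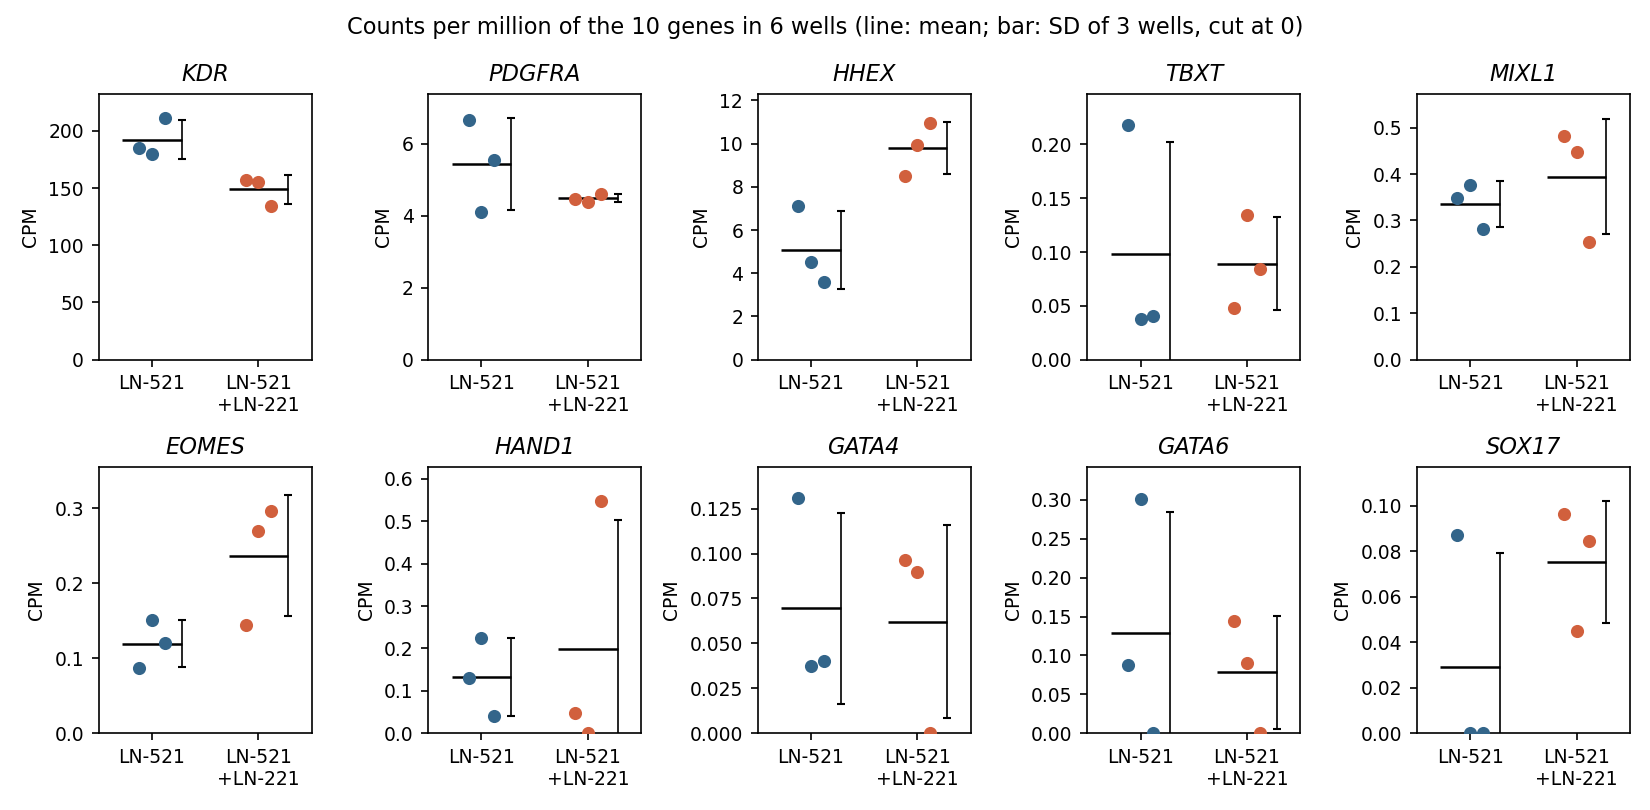
CPM of each of the 10 genes (vertical axes, each from 0 and with its own scale) in the 3 wells on LN-521 (blue) and the 3 wells on LN-521+LN-221 (orange); points are wells, lines are means and bars are the SD of 3 wells. The wells separate without overlap for KDR, with 180.1 CPM as the lowest LN-521 well and 157 CPM as the highest LN-521+LN-221 well, and for HHEX. Of all tested genes, 19.9% separate in this way. The scales of the 7 low genes end below 1 CPM.

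KDR (ENSG00000128052; chr4:55078259-55125595, minus strand, GRCh38) encodes VEGF receptor 2, the main signalling receptor for VEGFA. It was at 185, 180.1 and 212 CPM in LN-521 replicates 1 to 3 and at 157, 156 and 135 CPM in LN-521+LN-221 replicates 1 to 3. Every LN-521 well was above every LN-521+LN-221 well, a separation that 19.9% of all tested genes also showed in one direction or the other. The mean fell from 192 ± 17.0 CPM to 149 ± 12.6 CPM (SD, n = 3 each), a 1.29-fold lower level. The log2 fold change was -0.37 ± 0.07 (SE; 95% interval -0.52 to -0.22; edgeR adjusted p = 0.00742). The call rested on the third well of each coating: the adjusted p-value of the edgeR test was 0.0792 without LN-521 replicate 3, the highest KDR well, and 0.0693 without LN-521+LN-221 replicate 3, the lowest. Over all genes these fits called 201 and 194, against 446 with every library. With limma on log2(TPM + 1) the change was -0.31 (adjusted p = 0.608). No exon of another GENCODE gene overlaps KDR, and the antisense transcript inside its gene body, AC111194.2, had 0 counts in every library. In bulk RNA, fewer cells that carry a transcript and less transcript per cell cannot be told apart, here or for the genes that follow.

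HHEX (ENSG00000152804; chr10:92689951-92695646, plus strand, GRCh38) encodes a homeobox repressor of the anterior endoderm and of blood and endothelial progenitors. Its level was 7.10, 4.51 and 3.61 CPM in LN-521 replicates 1 to 3 and 8.52, 9.96 and 10.9 CPM in LN-521+LN-221 replicates 1 to 3. The groups did not overlap, as for 19.9% of all tested genes, and LN-521 replicate 1 lay nearest to the other coating. Its mean rose from 5.07 ± 1.81 CPM on LN-521 to 9.81 ± 1.21 CPM (SD, n = 3 each), and the fold fitted by edgeR was 1.95. On the log2 scale the rise was 0.96 ± 0.20 (SE; 95% interval 0.53 to 1.40; edgeR adjusted p = 0.0238). These values stem from 90 to 163 counts in an LN-521 library, against 177 to 259 in the LN-521+LN-221 wells, all whole numbers. No gene in GENCODE overlaps the HHEX locus.

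The HHEX call was less stable than its direction. It was lost in 4 of the 6 fits that left out a library: the edgeR adjusted p-value was 0.141 without LN-521 replicate 2, 0.0589 without LN-521 replicate 3, 0.125 without LN-521+LN-221 replicate 2 and 0.128 without LN-521+LN-221 replicate 3. Without LN-521 replicate 1, the LN-521 well with the most HHEX, the rise was 1.27 (edgeR adjusted p = 7.01e-06). With the replicate number as a block it was 0.98 (edgeR adjusted p = 0.0742), and with limma on log2(TPM + 1) it was 0.82 (adjusted p = 0.305). The estimate was positive in all 17 fits, from 0.77 to 1.27.

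The promoters of the genes called are shown for reference, as the 250 bases before the RefSeq transcription start (GRCh38.p14), 5′ to 3′ on the strand of the gene. Capitals mark matches, on either strand, to the GC box GGGCGG bound by SP-family factors and to the core GATA read by GATA factors. The KDR window is chr4:55125596-55125845 on the minus strand, and the HHEX window is chr10:92689705-92689954 on the plus strand.
KDR: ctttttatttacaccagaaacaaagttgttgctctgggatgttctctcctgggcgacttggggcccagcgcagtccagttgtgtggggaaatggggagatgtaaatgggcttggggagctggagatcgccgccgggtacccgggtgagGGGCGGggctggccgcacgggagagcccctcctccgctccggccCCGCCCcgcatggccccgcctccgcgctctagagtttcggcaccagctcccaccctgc
HHEX: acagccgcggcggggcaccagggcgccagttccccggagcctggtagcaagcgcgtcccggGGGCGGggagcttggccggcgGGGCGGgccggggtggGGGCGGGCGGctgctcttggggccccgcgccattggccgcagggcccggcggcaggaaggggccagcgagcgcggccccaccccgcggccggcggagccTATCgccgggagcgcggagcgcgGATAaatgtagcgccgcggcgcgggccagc
KDR had 2 GC boxes and no GATA core, with 65.2% G and C. HHEX had 4 GC boxes, of which the last pair overlap, and 2 GATA cores, with 81.2% G and C.

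Of the 10 genes, 8 had an entry among the RefSeq promoters used, while GATA4 and SOX17, both on chromosome 8, had none. There were 10 windows in all, since PDGFRA and TBXT have a pair of starts each. The GC box occurred in 7 of these windows and in 42.6% of all 35116 RefSeq promoter windows of this length. A GATA core was found in 4 of the 10 windows, against 45.6% of all. For the SOX core ACAAT the count was 2 of 10, against 24.6%, and for the TATA box TATAAA 2 of 10, against 10.7%. No window held the T-box half-site TCACAC, present in 9.9% of all. With so few windows these counts describe the sequences only.

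PDGFRA (ENSG00000134853; chr4:54229097-54298247, plus strand, GRCh38) encodes the alpha receptor for platelet-derived growth factors, a surface marker of paraxial and cardiac mesoderm. It was at 6.66, 4.10 and 5.54 CPM on LN-521, against 4.48, 4.39 and 4.60 CPM in the LN-521+LN-221 wells. The LN-521 wells spanned the whole range of the other coating, with replicate 2 below all 3 LN-521+LN-221 wells. The log2 fold change was -0.27 ± 0.17 (SE; 95% interval -0.62 to 0.09; edgeR adjusted p = 0.507), so the interval reaches from a fall of 0.62 to a small rise. Its counts were not whole numbers in 5 libraries, which means that some reads were assigned in part. In GENCODE 1533 exonic bases of PDGFRA are shared with AC058822.1, a gene on the same strand whose values were not used here, so the PDGFRA level is uncertain to that extent. No setting tried called PDGFRA, and its change was -0.10 without LN-521 replicate 1 and -0.44 without LN-521 replicate 2.

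**Figure D2:**
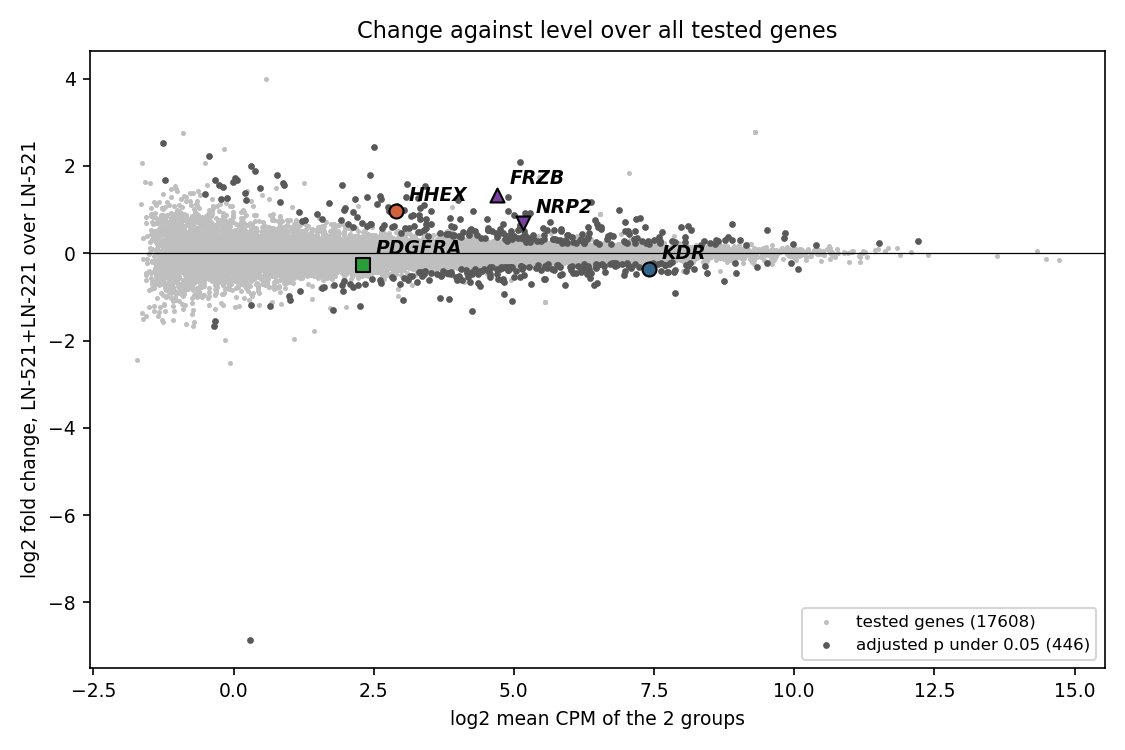
Log2 fold change of LN-521+LN-221 over LN-521 (vertical axis) against the log2 mean CPM of the 2 groups (horizontal axis) for the 17608 tested genes; light points are tested genes and dark points the 446 with an adjusted p-value under 0.05. KDR lies among the highly expressed genes with a change of -0.37, HHEX at a far lower level with 0.96, and PDGFRA inside the light cloud at -0.27; FRZB and NRP2 are the called genes of the 4 related lists.

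Among the primitive streak factors, TBXT (ENSG00000164458; chr6:166157656-166168700, minus strand), the founding T-box gene, had 5, 1 and 1 counts in LN-521 replicates 1 to 3 and 1, 3 and 2 in LN-521+LN-221 replicates 1 to 3. LN-521 replicate 1 alone held 5 of the 13 counts: the ratio of group sums, each scaled to its libraries' depth, LN-521+LN-221 over LN-521, was 0.956 (95% interval 0.266 to 3.32) with it and 2.32 without it. MIXL1 (ENSG00000185155; chr1:226223618-226227054, plus strand), a homeobox gene of the streak, was the best covered of the 7 low genes, with 8, 10 and 7 counts on LN-521, against 10, 10 and 6 in the LN-521+LN-221 wells. Its ratio was 1.16, with a 95% interval of 0.644 to 2.09, and stayed between 1.04 and 1.38 when any 1 library was left out. The MIXL1 wells of the coatings lay over one another. EOMES (ENSG00000163508; chr3:27715949-27722711, minus strand), which acts upstream of both mesoderm and definitive endoderm, had 2, 4 and 3 counts on LN-521, against 3, 6 and 7 in the LN-521+LN-221 wells. Its ratio was 1.98 (95% interval 0.825 to 5.09), and the CPM of the groups overlapped by a narrow margin, 0.150 in LN-521 replicate 2 against 0.144 in LN-521+LN-221 replicate 1.

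The mesoderm and heart factors were also too low to test. HAND1 (ENSG00000113196; chr5:154474972-154478264, minus strand), a basic helix-loop-helix factor of lateral mesoderm, had 3, 6 and 1 counts on LN-521, against 1, 0 and 13 in the LN-521+LN-221 wells. LN-521+LN-221 replicate 3 thus held 13 of the 24 HAND1 counts: the ratio was 1.56 (95% interval 0.645 to 3.93) with it and 0.173 without it. GATA4 (ENSG00000136574), a zinc finger factor of heart and endoderm, had 3, 1 and 1 counts on LN-521, against 2, 2 and 0 in the LN-521+LN-221 wells. Its ratio was 0.893 (95% interval 0.177 to 4.15), or 1.54 without LN-521 replicate 1, which held 3 of its 9 counts. For GATA6 (ENSG00000141448; chr18:22169443-22202528, plus strand), its relative in the same tissues, the counts were 2, 8 and 0 on LN-521, against 3, 2 and 0 in the LN-521+LN-221 wells. The GATA6 ratio was 0.558 (95% interval 0.150 to 1.79) and became 1.79 without LN-521 replicate 2, the well with 8 counts. GATA6 shares 240 exonic bases with the antisense gene GATA6-AS1, which itself had 0 to 5 counts, and 321 with the antisense gene AC091588.3, which had 0 or 1. SOX17 (ENSG00000164736), the endoderm factor, had the fewest counts over the 6 libraries of the 10 genes, with 2, 0 and 0 counts on LN-521, against 2, 1 and 2 in the LN-521+LN-221 wells. Its ratio was 2.79 (95% interval 0.457 to 29.3), and with LN-521 replicate 1 left out no LN-521 count remained. SOX17 without LN-521 replicate 2 gave 1.79.

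Over the 6 libraries these 7 genes together had 144 counts. The ratios of the group sums ran from 0.558 for GATA6 to 2.79 for SOX17, and the 95% intervals of all 7 included 1. The intervals are exact and cover counting error only. When the filter on low counts was dropped, none of the 7 genes passed the edgeR test (lowest adjusted p = 0.722, for EOMES), and 0 of the 7 reached an unadjusted p-value of 0.05, beside 9.48% of all 36261 genes in that fit, of which 1.98% passed after adjustment. At this depth 3 counts, the limit that a count of 0 allows, correspond to 0.113 to 0.144 CPM. For most of these genes the intervals are wide beside the 1.29-fold and 1.95-fold changes of KDR and HHEX.

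**Figure D3:**
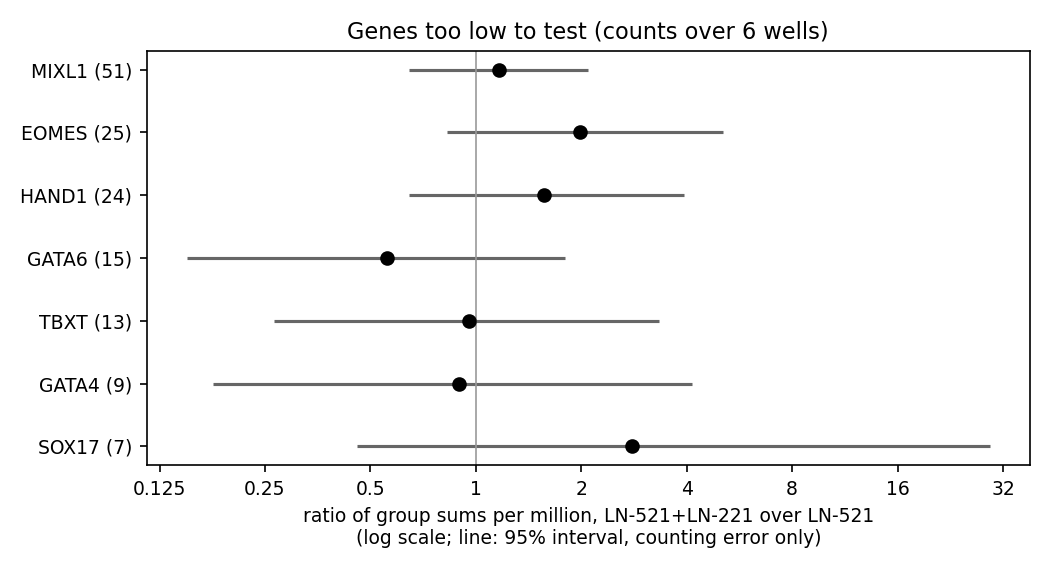
Ratio of the summed, depth-scaled counts on LN-521+LN-221 to those on LN-521 (horizontal axis, log scale) for the 7 genes too low to test, with the count over 6 wells in brackets; lines are 95% intervals that cover counting error only. Every line crosses a ratio of 1, and the interval is narrowest for MIXL1 (51 counts) and widest for SOX17 (7 counts), which reaches 29.3.

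LN-521 replicate 3 had the most KDR, the least HHEX and 13 counts over the 7 low genes, against 25 and 30 in LN-521 replicates 1 and 2. LN-521+LN-221 replicate 3 had the least KDR, the most HHEX and 30 counts over the 7 low genes, 13 of them from HAND1. Across the 6 libraries, the expressed genes whose log2 CPM followed KDR most closely were NDC80, a kinetochore protein (Pearson r = 0.995), FAM133A (r = 0.995) and SAMD4A (r = 0.994). None of these 3 genes passed the test between the coatings. For HHEX the closest were FEZF1, a forebrain zinc finger factor (r = 0.998), SOX11 (r = 0.997) and TACR1 (r = 0.997). FEZF1 rose by 0.54 on the log2 scale (edgeR adjusted p = 0.00730) and TACR1 by 1.89 (edgeR adjusted p = 0.00697), while SOX11, with a change of 0.39, did not pass (edgeR adjusted p = 0.0518). These correlations describe the best matches among 15225 genes over 6 libraries that share the same coating difference.

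**Figure D4:**
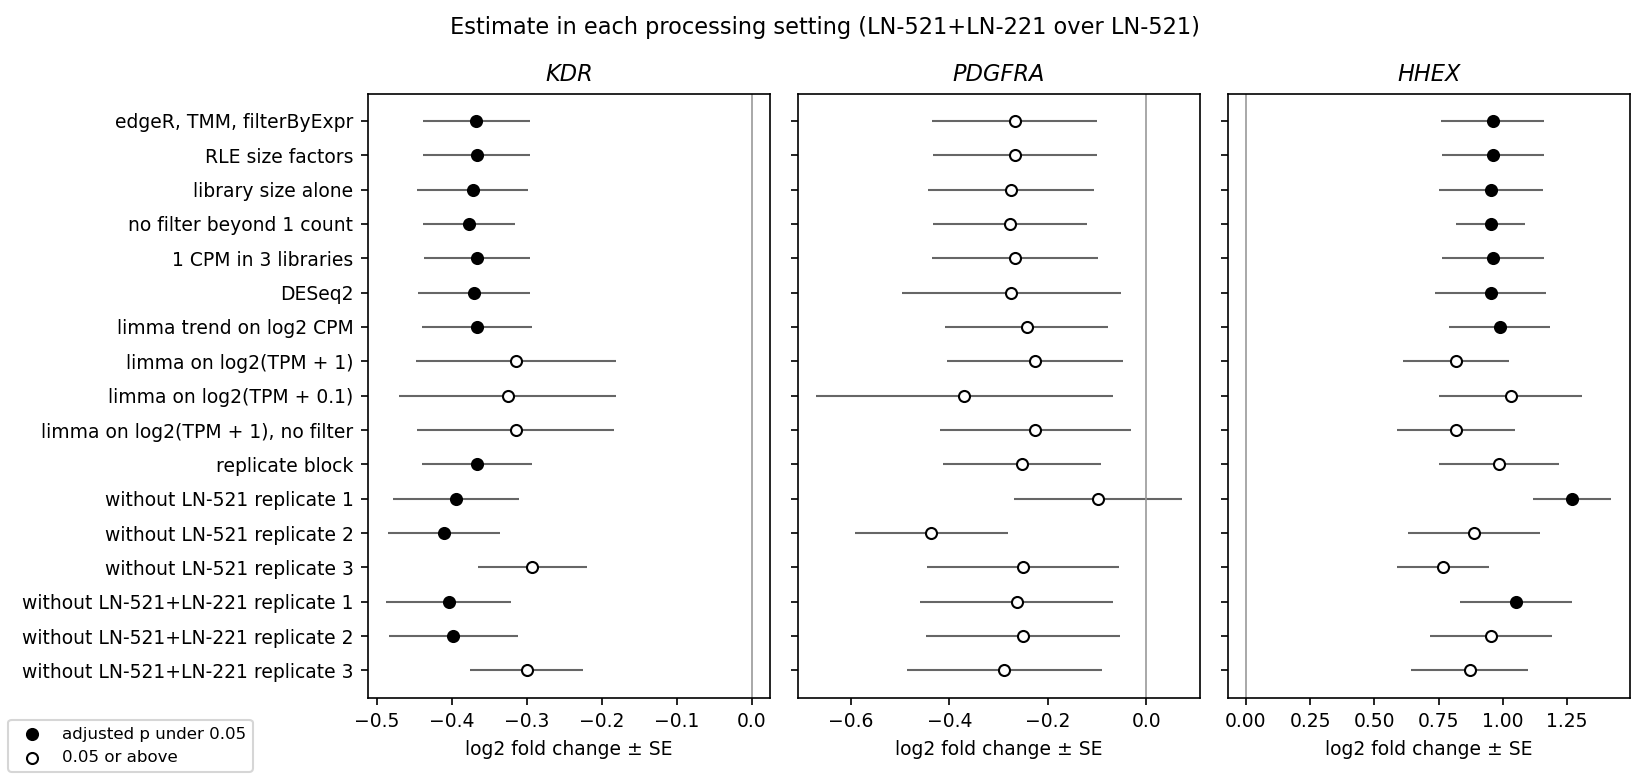
Log2 fold change of LN-521+LN-221 over LN-521 with its SE (horizontal axes) for KDR, PDGFRA and HHEX under each of 17 fits (vertical axis); filled points have an adjusted p-value under 0.05. The estimates stay on 1 side of 0 for each gene, from -0.41 to -0.29 for KDR, from -0.44 to -0.10 for PDGFRA and from 0.77 to 1.27 for HHEX, while the filled points are lost in 5 fits for KDR and 8 for HHEX.

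Genes that act with the receptors KDR and PDGFRA were compared next, from a list of 14 ligands, co-receptors and related receptors, of which 13 were tested. NRP2, a neuropilin that serves as a co-receptor for VEGF family members, was the 1 gene of this list that passed, beside 2.53% of all genes tested. It was at 31.8, 25.1 and 25.4 CPM on LN-521, against 43.9, 43.5 and 45.2 CPM in the LN-521+LN-221 wells, without overlap, as for 19.9% of all tested genes. NRP2 rose by 0.69 ± 0.09 (SE, log2; edgeR adjusted p = 1.33e-04), opposite in sign to KDR. With limma on log2(TPM + 1) its change was 0.59 (adjusted p = 0.388). The most abundant gene of the list, FLT1, encodes VEGF receptor 1. FLT1 stood at 151 ± 7.35 CPM on LN-521, against 136 ± 5.22 CPM in the LN-521+LN-221 wells (SD, n = 3 each), a log2 change of -0.16 ± 0.06 (SE; by edgeR adjusted p = 0.190). Without LN-521 replicate 2 the FLT1 call passed (edgeR adjusted p = 0.0468). The ligand VEGFA was at 71.4 ± 4.99 and 75.9 ± 2.32 CPM (SD, n = 3 each; edgeR adjusted p = 0.583). The median log2 fold change of the 13 genes was -0.06, against -0.0011 over all genes tested.

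From a list of 16 genes of the primitive streak, 7 were tested and none passed (edgeR), beside 2.53% of all genes tested. The most abundant, FGF4, a growth factor made by pluripotent cells, was at 8.56 ± 0.841 CPM on LN-521, against 7.31 ± 0.741 CPM in the LN-521+LN-221 wells (SD, n = 3 each; edgeR adjusted p = 0.436). Among the 9 genes below the filter were MESP1, GSC and FOXA2, with at most 7, 3 and 2 counts in a library. Of 15 mesoderm and cardiac progenitor genes 3 were tested and none passed. BMP4, a ligand that induces mesoderm, was the most abundant of these, at 2.48, 4.36 and 2.49 CPM on LN-521, against 1.69, 1.88 and 2.15 CPM in the LN-521+LN-221 wells. Its groups did not overlap, as for 19.9% of all tested genes, and the change of -0.71 ± 0.23 (SE) did not pass (edgeR adjusted p = 0.148). BMP4 passed without LN-521 replicate 1 (edgeR adjusted p = 0.0357) and without a filter on low counts (edgeR adjusted p = 0.0453). The change was -0.37 without LN-521 replicate 2, its highest well.

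Of 16 endoderm genes 9 were tested, and 1 passed. FRZB, a secreted antagonist of Wnt ligands, was at 17.9, 14.5 and 11.8 CPM on LN-521, against 34.9, 38.6 and 38.7 CPM in the LN-521+LN-221 wells. It rose by a fitted 2.54-fold, a log2 change of 1.35 ± 0.12 (SE; by edgeR adjusted p = 8.23e-06), and, as for HHEX, its lowest well was LN-521 replicate 3. FRZB passed in every fit that left out 1 library, but not with limma on log2(TPM + 0.1) (adjusted p = 0.0811) or on log2(TPM + 1) without a filter (adjusted p = 0.274). The most abundant endoderm list gene was KIT, a receptor tyrosine kinase, at 57.3 ± 1.35 CPM on LN-521, against 66.8 ± 2.14 CPM in the LN-521+LN-221 wells (SD, n = 3 each). Its change of 0.22 ± 0.06 (SE) did not pass (edgeR adjusted p = 0.0635), though it did without LN-521 replicate 1 (edgeR adjusted p = 0.0194) or without LN-521 replicate 2 (edgeR adjusted p = 0.0458). Other genes of the list lay lower on LN-521+LN-221 without passing. LEFTY2, a Nodal antagonist, was at 1.26, 1.39 and 2.53 CPM on LN-521, against 0.915, 0.269 and 1.10 CPM in the LN-521+LN-221 wells. Its groups did not overlap, as for 19.9% of all tested genes, and its log2 change of -1.18 ± 0.40 (SE) did not pass (edgeR adjusted p = 0.167). It passed without a filter on low counts and with the replicate block. LEFTY2 counts were not whole in 4 libraries, so its level is less certain. The changes of AFP, at -0.98 (edgeR adjusted p = 0.271), and of FOXA3, at -0.20 (edgeR adjusted p = 0.300), had the same sign. The endoderm factor FOXA1 had at most 3 counts in a library, and TTR had 0 in all 6. The median log2 fold change of the 9 endoderm genes tested was -0.01. Over the 4 lists, 32 of 61 genes were tested and 2 were called, both higher, beside 2.53% of all genes tested that were called in either direction and 1.4% called higher.

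**Figure D5:**
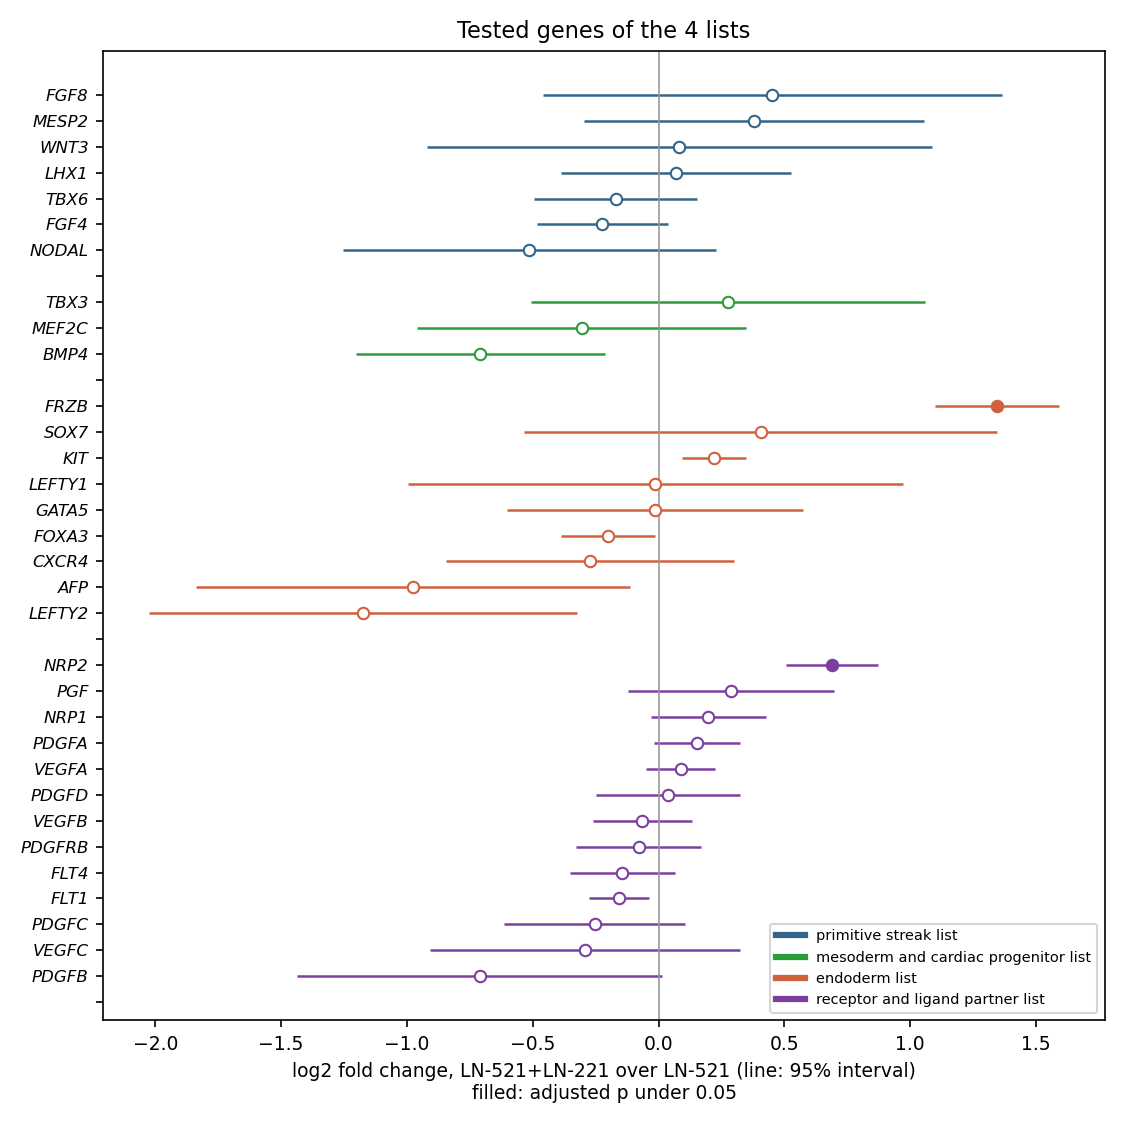
Log2 fold change of LN-521+LN-221 over LN-521 (horizontal axis) with 95% intervals for the 32 tested genes of the 4 lists, coloured by list; filled points have an adjusted p-value under 0.05. FRZB at 1.35 and NRP2 at 0.69 are the filled points, and most of the other intervals include 0.

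Markers of other cell types were set beside these results, and their counts of called genes stand against 2.53% of all genes tested. Of the endothelial and blood markers, CDH5 had 2 to 9 counts on LN-521 and 1 count in each LN-521+LN-221 well, and PECAM1 had 2 to 9 counts in all. TIE1, an endothelial receptor tyrosine kinase, fell with KDR. Its wells lay at 4.70 to 5.54 CPM on LN-521, against 2.24 to 3.18 CPM in the LN-521+LN-221 wells, a log2 change of -0.87 ± 0.17 (SE; by edgeR adjusted p = 0.00739). It did not pass without LN-521 replicate 3 (edgeR adjusted p = 0.0645) or without LN-521+LN-221 replicate 3 (edgeR adjusted p = 0.0681). The KDR call was lost in the same fits, in which 201 and 194 of all genes passed, against 446 with every library. TIE1 changed by -0.27 with limma on log2(TPM + 1) (adjusted p = 0.747). It was the 1 called gene of 4 tested in that list of 7, and the summed level of the list was 27.4 to 31.7 CPM on LN-521, against 25.3 to 27.7 CPM in the LN-521+LN-221 wells. Most of that sum came from TEK, the angiopoietin receptor, at 22.2 ± 2.40 and 22.5 ± 1.80 CPM (SD, n = 3 each; edgeR adjusted p = 0.951), and TAL1 had 1 to 8 counts on LN-521 and 4 to 9 on the other coating. NANOG fell in the same direction as KDR, with a log2 change of -0.73 ± 0.09 (SE; by edgeR adjusted p = 1.65e-04). With limma on log2(TPM + 1) its adjusted p was 0.221. Of the other pluripotency markers, TDGF1 and POU5F1 also fell, and LIN28A rose by 0.23 (log2, edgeR adjusted p = 0.00737). SOX2, DNMT3B and L1TD1 did not pass. Of 7 early neural ectoderm markers 4 were tested, and 2, OTX2 and ZIC1, passed, both higher as HHEX was. OTX2, a head and forebrain homeobox factor, rose by 0.72 ± 0.06 (SE, log2; edgeR adjusted p = 4.38e-06), a call lost with limma on log2(TPM + 0.1) (adjusted p = 0.0582) and on log2(TPM + 1) without a filter (adjusted p = 0.128). ZIC1 had 9 to 27 counts a library, and its rise of 1.36 ± 0.35 (SE, log2; edgeR adjusted p = 0.0474) did not pass when any 1 library was left out. The summed level of the 7 neural markers was 99.8 to 126 CPM on LN-521, against 212 to 239.8 CPM in the LN-521+LN-221 wells. Nearly all of this sum came from OTX2 and LHX5, and LHX5, at 19.9 ± 6.80 and 67.0 ± 8.33 CPM (SD, n = 3 each), did not pass (edgeR adjusted p = 0.0865). PAX6 did not pass either (edgeR adjusted p = 0.766), and LHX2 had at most 3 counts in a library. The amnion and trophoblast markers, whose cells also express HAND1 and GATA factors, had no called gene among 5 tested of 7 and summed to 29.6 to 32.9 CPM on LN-521, against 28.6 to 30.1 CPM in the LN-521+LN-221 wells. The fibroblast markers, which include PDGFRB, had no called gene among 4 tested of 7, and LUM was at 0 in every library. They summed to 343 to 411 CPM on LN-521, against 367 to 375 CPM in the LN-521+LN-221 wells, nearly all of it from COL1A1 and COL1A2, while COL3A1 had 0 or 1 count and DCN 0 to 9 counts in a library. The part of these cell types in the changes of KDR and HHEX was not tested.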

How the data were processed

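The authors deposited 2 tables over 60499 Ensembl gene IDs: estimated counts per gene, and TPM values (corrected for length, with an equal sum in every library). Per the submitters' processing notes, cutadapt, STAR 2.5.2b, RSEM 1.2.31 and hg38 were used. The library kit was stranded, per the labels; the annotation and the strand setting of the counting are not given in the sources used here. The sample sheet lists 1 sequencing batch.

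Counts were rounded, filtered with edgeR's filterByExpr (minimum count 10), scaled by TMM and tested with edgeR 4.0.16 (R 4.3.3, quasi-likelihood, robust) on all 6 libraries without a block. Benjamini-Hochberg adjustment covered all 17608 genes tested, with a threshold of 0.05. CPM are rounded counts over TMM-scaled library sizes, and SE is the log2 fold change divided by the root of F. Genes below the filter were summed by coating, with exact 95% intervals. TPM alternatives used limma 3.58.1 and another used DESeq2 1.42.0. Per-library TPM also depend on RN7SL RNAs, which took 30.1% to 37.3% of TPM. Coordinates are from GENCODE release 29 and promoters from RefSeq. Median log2 fold changes and counts describe lists; no test was run on them. The scripts were tested on simulated data.

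The 10 genes and all lists were chosen with earlier results of these data known. Named genes are the 10, list and marker genes with an adjusted p-value under 0.05, the most abundant gene of each list and the 3 genes most like each called gene. The markers SOX2, DNMT3B, L1TD1 and PDGFRB, and genes that overlap KDR, PDGFRA or GATA6, are named too. VEGFA, LEFTY2, AFP, FOXA3, LHX5, PAX6, TEK, TAL1, COL1A1, COL1A2, MESP1, GSC, FOXA2, FOXA1, TTR and the low or silent markers were named after their values were seen.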

Additional observations from a re-analysis of the deposited data

How the results depend on the processing

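KDR, PDGFRA and HHEX kept their direction in all 17 fits. With the 3 TPM fits, limma on log2(TPM + 1), on log2(TPM + 0.1) and on log2(TPM + 1) without a filter, 0, 0 and 0 of the 10 genes were called, of 33, 16 and 1 genes in all, and 1, 0 and 0 of the list genes. With log2(TPM + 1), 81.8% of calls were higher, against 55.2% in the reported fit, and with no filter the 1 call was lower. An unadjusted p-value under 0.05 was reached in these fits by 2, 1 and 1 of the 10 genes, beside 8.04%, 8.16% and 6.52% of all genes. Without a filter 718 genes and 4 list genes were called, and 0 of the 10 genes lay below the filter, against 7. For these shifts the cause was not tested. With the replicate block 1 of the 10 genes (KDR) was called, and 646 genes in all. The mean correlation of deviations was 0.014 for the 3 pairs of wells with equal replicate numbers, against -0.0071 for the 6 unequal ones. With so few pairs, and deviations taken from means of 3 wells, this cannot decide whether the wells were paired. Leaving out each library gave 194 to 1179 calls over all genes, 0 to 2 over the 10 genes and 2 to 5 over the lists. The highest count over all genes came without LN-521 replicate 1 and the lowest without LN-521+LN-221 replicate 3. Without 1 library the group-sum ratio became 0.173 for HAND1 and 1.79 for GATA6, and none could be given for SOX17 without LN-521 replicate 1. Over 16 named genes, other settings gave 123 values with the same call, 32 weaker, 1 stronger and 0 reversed, and left-out libraries 74, 18, 4 and 0. Depth limits the 7 low genes, with 144 counts in all.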
